A study of Mus musculus with 4 samples.

Results

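The 36 cell cycle genes described here comprised the cyclins and cyclin-dependent kinases (CDKs) of G1 phase, the CDK inhibitors of the Cip/Kip family, genes of DNA replication, genes of G2 and mitosis, and 3 chromatin and tubulin genes that are high in dividing cells. They were picked by symbol from the 32286 genes of the deposited count tables, and each symbol matched 1 row. By role, 5 were G1 cyclins and CDKs, 3 were CDK inhibitors, 9 were S phase genes, 16 were mitotic and G2 genes, and 3 were chromatin and tubulin genes (*Hmgb2*, *Stmn1* and *Tubb5*). The 16 mitotic and 9 S phase genes are together called the 25 proliferation genes.

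The study compared constitutive *Angpt2*-knockout mice (*Angpt2*-KO, *Angpt2*-/-) with wild-type littermates (WT, *Angpt2*+/+) by single-cell RNA sequencing of microvascular fragments, captured from brain with PECAM1-coated magnetic beads. The KO allele came from a floxed *Angpt2* allele in which exon 4 was removed in all cells by Pgk-Cre, on a C57BL6/J background. Each genotype had 2 mice aged 3 months, 1 female (replicate 1) and 1 male (replicate 2), and each mouse gave 1 library. Replicate number and sex therefore cannot be told apart, and p-values measure the spread between these 4 mice. The study names 2 independent experiments, and the labels do not say which mice belonged to each. An experiment that went with replicate number could not be told apart from sex.

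Cells move from G1 to S phase when D-type cyclins bind CDK4 or CDK6 and the RB protein releases E2F transcription factors. Cip/Kip proteins restrain these kinases, and *Cdkn1a* (p21) is also a target of p53. Genes of mitosis are held off by the DREAM complex, which binds a short promoter element called the cell cycle genes homology region (CHR), and are turned on late in the cycle by B-MYB, FOXM1 and the CCAAT-binding factor NF-Y. In the adult brain, endothelial cells (ECs) and mural cells divide rarely, so most of them are expected to lie in G0 or G1, where D-type cyclins can be high without division.

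The 4 tables held 19809 barcodes. Cells with more than 500 genes and under 10% mitochondrial unique molecular identifiers (UMIs, each standing for 1 captured RNA molecule) numbered 17999 and held 140111604 UMIs, with a median per cell between 4088.5 and 7351.5 across mice. KO1 had the deepest cells, and 33 kept barcodes were found in more than 1 library. Cells were grouped by clustering without the listed cell cycle genes and were named by marker genes. ECs numbered 3218 and 4699 in the WT mice and 2088 and 4147 in the KO mice, and microglia-like cells 208, 161, 265 and 271 in the same order. Mural cells, that is pericytes and smooth muscle cells, numbered 345, 338, 223 and 399, and B and T or NK lymphocytes 71, 123, 111 and 54. Between 35.8% and 51.1% of the mural cells held at least 2 markers of another type, each with at least 2 UMIs, against 3.71% to 6.12% of ECs. Levels are given as CPM, the UMIs of a gene per 1000000 UMIs of the same mouse and cell type. *Angpt2* itself was counted at 10.7 and 9.92 CPM in WT ECs and at 64.8 and 41.1 in KO ECs. The library counts tags at the 3′ end of the RNA, outside the deleted exon, so this neither shows nor contradicts the deletion.

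The promoters of mitotic genes are shown first, because mitotic genes were among the members called in ECs and in the microglia-like cluster, and that of 1 replication gene, *Mcm6*, which was not called, stands beside them for contrast. RefSeq windows on GRCm38.p6, from 250 bases before to 50 bases after the start of a gene, were given for 28 of the 36 genes. Each was searched on both strands for TTTGAA (the CHR), CCAAT, and TTTGGCGC (an E2F-type site), and no match overlapped another in the stretches below. The CHR letters were in 9 of 13 mitotic windows, in 1 of 8 S phase windows and in 17.9% of all 32851 windows. CCAAT was in 12 of 13 mitotic and 6 of 8 S phase windows, against 37.4% of all. The E2F-type letters were in none of the 13 mitotic windows and in 3 of 8 S phase windows (*Mcm3*, *Mcm5* and *Mcm6*), against 0.514% of all. Such matches describe the letters and do not show binding. The 150 bases before the start of 5 genes, picked after the values and matches were seen, follow, 5′ to 3′ on the strand of the gene, with each match in capitals on either strand. *Top2a*, the topoisomerase that untangles chromosomes, lies at chr11:99024190-99024339 on the minus strand. *Cdk1*, the mitotic kinase, lies at chr10:69352913-69353062 on the minus strand. *Ube2c*, a ubiquitin-conjugating enzyme of the anaphase-promoting complex, lies at chr2:164769779-164769928 on the plus strand. *Mki67*, the proliferation marker Ki-67, lies at chr7:135716380-135716529 on the minus strand, and *Mcm6*, a subunit of the replicative helicase, at chr1:128359706-128359855 on the minus strand.
Top2a: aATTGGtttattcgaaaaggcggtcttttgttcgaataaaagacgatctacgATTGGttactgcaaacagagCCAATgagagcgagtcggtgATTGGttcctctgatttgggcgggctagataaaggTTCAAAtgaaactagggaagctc
Cdk1: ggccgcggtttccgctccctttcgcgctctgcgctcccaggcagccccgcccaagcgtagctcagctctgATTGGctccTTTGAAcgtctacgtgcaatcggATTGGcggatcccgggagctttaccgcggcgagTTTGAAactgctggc
Ube2c: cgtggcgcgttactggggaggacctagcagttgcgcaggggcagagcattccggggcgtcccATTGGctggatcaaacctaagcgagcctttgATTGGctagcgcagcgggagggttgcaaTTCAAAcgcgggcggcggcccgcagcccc
Mki67: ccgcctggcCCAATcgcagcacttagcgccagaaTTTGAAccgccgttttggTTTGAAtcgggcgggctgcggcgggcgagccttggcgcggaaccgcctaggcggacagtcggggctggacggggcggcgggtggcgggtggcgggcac
Mcm6: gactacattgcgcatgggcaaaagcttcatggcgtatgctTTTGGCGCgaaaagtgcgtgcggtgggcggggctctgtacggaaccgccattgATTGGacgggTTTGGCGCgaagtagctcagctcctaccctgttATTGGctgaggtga
*Cdk1* and *Mki67* had 2 CHR matches each in the printed stretch and *Top2a* and *Ube2c* 1 each, while *Mcm6* had none and instead held 2 E2F-type matches.

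In ECs, members of several roles differed between the genotypes. The D-type cyclins *Ccnd1* and *Ccnd2* were higher in *Angpt2*-KO, and *Cdk6* and the microtubule-destabilizing protein gene *Stmn1* were lower. Summed UMIs per mouse were compared by the quasi-likelihood F test of edgeR, and p-values were adjusted by Benjamini-Hochberg across 13471 genes, of which 802 (5.95%) were called at an adjusted p under 0.05. Of these, 518 (3.85% of tested) were higher in KO and 284 (2.11%) lower. Of the 36 members, 28 passed the filter on low counts, 6 were higher and 2 lower in KO. The median log2 fold change was 0.31 over the members tested and -0.02 over all genes. Some mitotic members, named below, passed the filter only through the KO mice, which raises the median of the members.

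*Ccnd1*, whose product cyclin D1 drives CDK4 and CDK6 in response to growth signals, stood at 84.5 and 79.1 CPM in the WT mice and at 562 and 446 in the KO mice. The groups were far apart, with means of 81.8 ± 3.87 and 504 ± 82.0 (SD, n = 2 mice each). The log2 fold change was 2.61 (adjusted p = 0.00078, with an SE of 0.15), and it was called under 12 of 12 alternative settings. *Ccnd2*, a second D-type cyclin, was at 102 and 72.2 in WT and at 189 and 159 in KO. Both KO mice were above both WT mice, and the log2 fold change was 0.98 (adjusted p = 0.017, with an SE of 0.18). *Cdk6*, a kinase partner of the D-type cyclins, was at 30.2 and 31.1 in WT and at 14.1 and 19.2 in KO. It fell by 0.90 on the log2 scale (adjusted p = 0.015, with an SE of 0.16), and the call was lost when either WT mouse was left out (adjusted p = 0.078 without WT1 and 0.052 without WT2). The third D-type cyclin, *Ccnd3*, and the kinase *Cdk4* were not called, with log2 fold changes of 0.02 and -0.06.

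*Stmn1* was at 200 and 262 CPM in WT ECs and at 134 and 133 in KO ECs. The KO mice lay close together and below both WT mice, and *Stmn1* fell by 0.81 on the log2 scale (adjusted p = 0.012, with an SE of 0.13). *Tubb5*, a beta-tubulin, and *Hmgb2*, a chromatin protein, were not called, at log2 fold changes of -0.26 and -0.12. None of the 3 CDK inhibitors was called in the fit of all ECs. *Cdkn1a* was at 228 and 214 in WT and 313 and 273 in KO (log2 fold change 0.39, adjusted p = 0.13), and *Cdkn1c* (p57) at 149 and 136 in WT and 67.7 and 106 in KO (-0.73, adjusted p = 0.070). *Cdkn1c* was called in other settings, by DESeq2 (adjusted p = 0.0022), after thinning to 2000 UMIs (0.0066), without a filter on low counts and without KO2. *Cdkn1b* (p27) had a log2 fold change of -0.23 (adjusted p = 0.27). None of the 7 S phase genes tested was called either. Their log2 fold changes ran from -0.24 (*Ccne2*) to 0.43 (*Mcm6*, adjusted p = 0.12), and *Pcna*, the sliding clamp of DNA polymerase, was at 62.8 to 67.8 CPM in the 4 mice. *Ccne1* and *Rrm2*, at 14 and 44 UMIs over all ECs, were too low to be tested. Immediate early and heat shock genes, which respond to handling of tissue, were lower in KO ECs (4 of 11 called), with a summed level of 8516 and 7958 CPM in WT and of 5291 and 5503 in KO, and their part in the results on ECs was not tested.

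**Figure D1:**
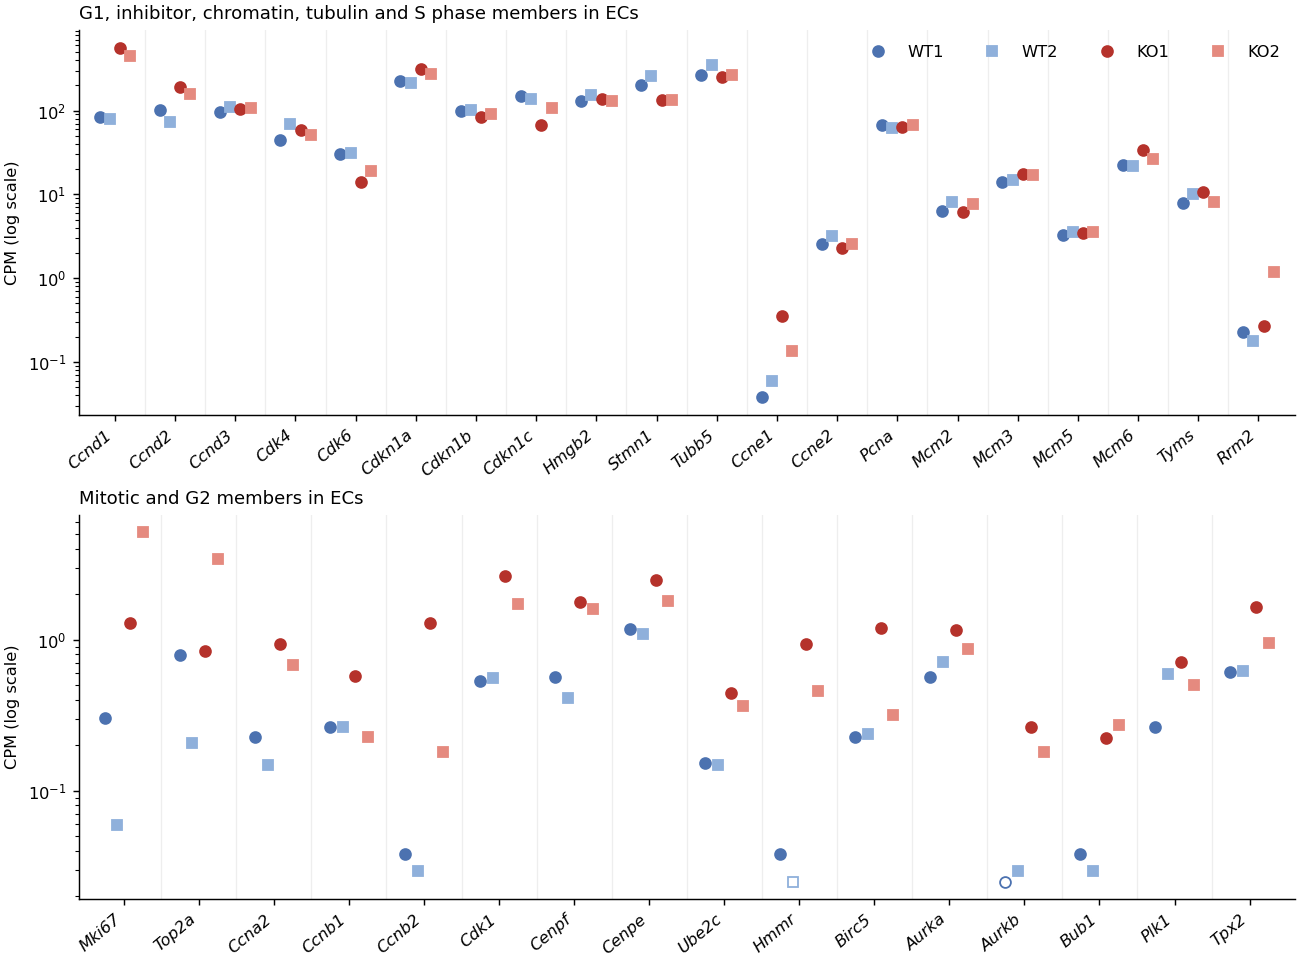
CPM of each of the 36 genes in the ECs of each mouse, on a log axis, with genes ordered by role, WT mice and KO mice in different colours, and open symbols at the bottom for 0 UMIs. *Ccnd1* shows the widest gap among the genes of G1, from 84.5 and 79.1 in WT to 562 and 446 in KO, and the mitotic genes sit at or below 5.18.

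Within ECs, *Ccnd1* was higher in KO than in WT in the capillary, venous and arterial groups as well as in the angiogenic capillary-like group. These groups were made by clustering ECs without the cell cycle genes, and the angiogenic capillary-like and tip-like names rest on genes that the study chose on these libraries. The comparisons between groups of the same cells are descriptions without a test. In capillary ECs *Ccnd1* was at 67.6 and 73.2 CPM in WT and at 273 and 280 in KO. In venous ECs it was at 32.0 and 35.3 in WT and at 178 and 95.4 in KO. In arterial ECs it was at 233 and 263 in WT and at 318 (from 18 cells) and 341 in KO. The angiogenic capillary-like group held 40 and 29 cells in the WT mice and 728 and 792 in the KO mice, and *Ccnd1* was at 366 and 353 in WT and at 795 and 844 in KO. Without the angiogenic capillary-like and tip-like cells, *Ccnd1* in ECs still had a log2 fold change of 1.87 (edgeR, adjusted p = 9.3e-05) and *Cdk6* fell by 0.58 (adjusted p = 0.045). Without those cells *Ccnd2* was not called (0.62, adjusted p = 0.12), and neither was *Stmn1* (-0.46, adjusted p = 0.20). The mix of the remaining ECs also differed. The venous group held 119 and 319 cells in the WT mice and 42 and 97 in the KO mice. The arterial group held 104 and 108 in WT and 18 and 76 in KO. The part of this mix in the fold changes over ECs, with or without those cells, was not tested.

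The tip-like group, with leading genes *Apln* and *Esm1*, held 2 and 1 cells in the WT mice and 90 and 52 in the KO mice, so only KO values are given. It combined a high level of cyclin D1 RNA with a high level of p21 RNA. *Ccnd1* was at 955 and 921 CPM. *Cdkn1a* was at 922 and 694, against 288 and 331 in the angiogenic capillary-like ECs and 177 and 211 in the capillary ECs of the same mice. *Cdkn1c* was at 12.1 and 14.2, *Cdk6* at 1.35 and 8.86 and *Stmn1* at 50.3 and 51.4 in the tip-like cells. In the capillary ECs of the same mice the corresponding levels were 67.1 and 93.3 for *Cdkn1c*, 14.5 and 16.4 for *Cdk6* and 127 and 105 for *Stmn1*. *Mki67* had 0 UMIs in the tip-like cells of both KO mice, from 90 and 52 cells, so a low level could be missed. Together the 16 mitotic genes had 31 and 8 UMIs there, or 13.9 and 14.2 CPM. These genes were at 5.97 and 9.42 CPM in the capillary ECs and 32.7 and 8.96 in the angiogenic capillary-like ECs of the same mice. In the other EC groups of these mice they were at 22.9 and 3.60 (venous), 9.94 and 4.75 (arterial) and 5.89 and 41.4 (unnamed). The tip-like values lay within this spread. Tip-like cells were deep in KO1, with a median of 18340 UMIs against 6829.5 in KO2. *Ccnd2* and *Cdkn1c* were highest in arterial ECs, at 727 and 510 for *Ccnd2* and 505 and 395 for *Cdkn1c* in the WT mice, and *Cdk6* in the WT mice was highest in venous ECs, at 79.7 and 60.2.

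**Figure D2:**
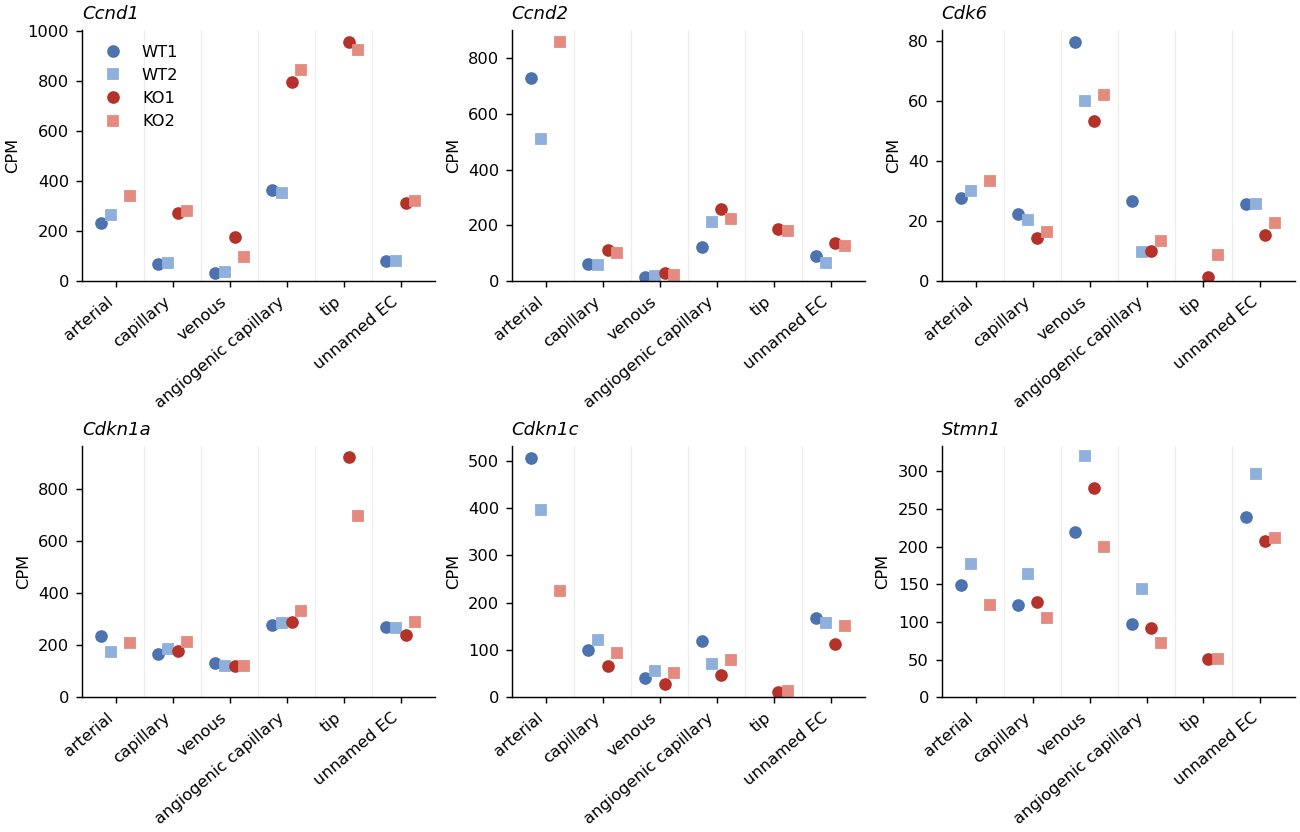
CPM of *Ccnd1*, *Ccnd2*, *Cdk6*, *Cdkn1a*, *Cdkn1c* and *Stmn1* in each group of ECs, 1 point per mouse with WT and KO in different colours, and mice with under 20 cells in a group not drawn. *Ccnd1* in KO rises from 178 and 95.4 in venous ECs to 955 and 921 in tip-like ECs, where *Cdkn1a* is also at its highest, at 922 and 694.

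Mitotic genes were sparse in ECs, and 4 of the 10 tested were called, all higher in KO. *Cdk1* was at 0.53 and 0.56 CPM in the WT mice and at 2.66 and 1.73 in the KO mice. Both KO mice were higher, with a log2 fold change of 1.98 (edgeR, adjusted p = 0.021, with an SE of 0.38). *Mki67* had 8 and 2 UMIs in all WT ECs and 29 and 114 in all KO ECs, or 0.30, 0.059, 1.29 and 5.18 CPM. Its log2 fold change was 4.20 (adjusted p = 0.025, with an SE of 0.84), with KO2 far above KO1. *Cenpf*, a kinetochore protein gene, had 15 and 14 UMIs in WT and 40 and 35 in KO (0.57, 0.41, 1.77 and 1.59 CPM), with a log2 fold change of 1.76 (adjusted p = 0.035, with an SE of 0.38). *Hmmr*, which encodes a mitotic spindle protein, had 1 and 0 UMIs in WT and 21 and 10 in KO. The ratio of KO to WT CPM, from UMIs summed over mice, was 41.9, with an exact 95% interval of 6.98 to 1707 that covers counting error only, and the adjusted p was 0.025. Of the other 6 mitotic genes tested, *Ccna2* (cyclin A2) had a log2 fold change of 2.09 (adjusted p = 0.067), *Top2a* of 2.11 (adjusted p = 0.17), and *Cenpe*, *Aurka*, *Plk1* and *Tpx2* lay between 0.45 and 1.06. The 6 mitotic genes that were not tested had between 11 and 48 UMIs each over all ECs. The filter on low counts asks for a minimum level in at least 2 mice. *Mki67*, *Hmmr* and *Ccna2* reached it only in the KO mice. Their direction was therefore set by the filter and is no support for a shared rise of mitotic genes.

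Cells with at least 5 of the 16 mitotic genes were counted to see how the UMIs were spread. There were 1 and 0 such cells among the WT ECs and 2 and 4 among the KO ECs. They held 51.6% of the mitotic UMIs in KO1 ECs and 63.8% in KO2 ECs, against 21.6% in WT1. Pooled over the mice and the 4 cell types, 15 of 7558 KO cells and 3 of 9163 WT cells passed the same count. This pooled count is a description without a test, made as deposited, with KO1 the deepest library. It includes cells of the microglia-like cluster with few microglia markers, described below. The 7 ECs were 1 venous cell of WT1, 1 angiogenic capillary-like and 1 venous cell of KO1, and 2 capillary and 2 unnamed cells of KO2, and none was tip-like. Of the 7 ECs, 2 held markers of another type. Without the 7 cells, the mitotic genes together were at 4.57 and 5.14 CPM in WT and 8.93 and 6.79 in KO. Because these cells were chosen by the mitotic genes, lower values of those genes without them follow from the choice and are given as a description. *Mki67* and *Hmmr* were then too low to be tested, *Cenpf* was not called (log2 fold change 0.46, adjusted p = 0.66), and *Cdk1* was still called (1.92, adjusted p = 0.040). *Cdk1* in ECs was not called without the angiogenic capillary-like and tip-like cells (0.81, adjusted p = 0.50), or when either WT mouse was left out (adjusted p = 0.13 without WT1 and 0.14 without WT2). *Cenpf* was also not called without the angiogenic capillary-like and tip-like cells (1.31, adjusted p = 0.45), without cells that held markers of another type (1.17, adjusted p = 0.25) or by DESeq2 (adjusted p = 0.071). The other mitotic calls in ECs were also lost without either WT mouse, with adjusted p-values of 0.088 and 0.14 for *Mki67*, 0.11 and 0.22 for *Hmmr*, and 0.13 and 0.27 for *Cenpf* (without WT1 and without WT2).

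**Figure D3:**
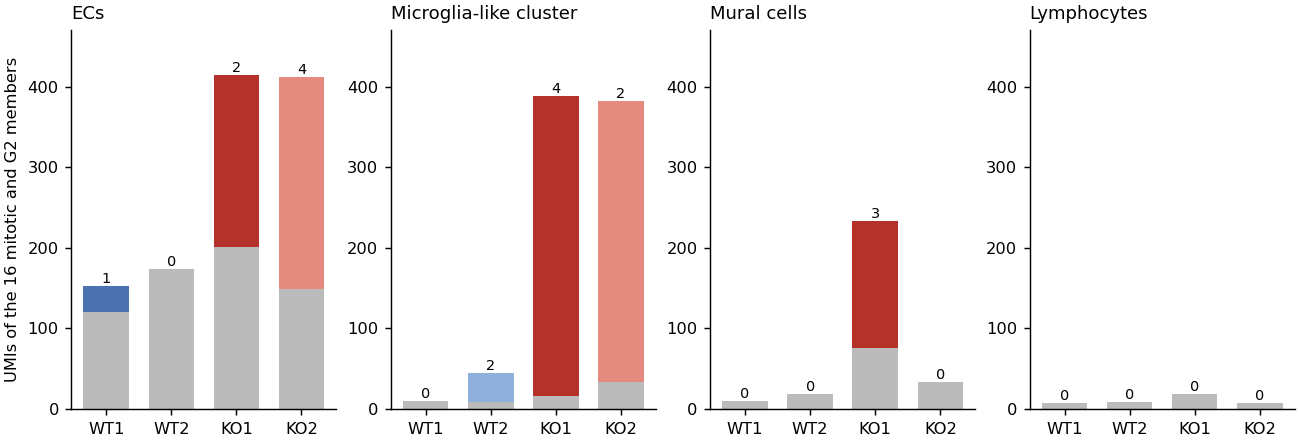
UMIs of the 16 mitotic genes in each mouse and cell type, with the part in cells that hold at least 5 of these genes in colour, the part in all other cells in grey, and the number of such cells above each bar. In the microglia-like cells of KO1 and KO2, 4 and 2 cells hold 95.9% and 91.4% of the mitotic UMIs.

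In the microglia-like cluster, 4 mitotic genes and *Hmgb2* were higher in *Angpt2*-KO, and none was lower. The edgeR test called 37 of 9025 genes (0.41%), 13 of them higher (0.144%), and 5 of the 23 members tested. The median log2 fold change was 0.18 over the members and 0.00 over all genes. Of the mitotic genes tested, *Ube2c*, *Birc5*, *Cenpf*, *Hmmr*, *Cdk1* and *Ccnb2* reached the level of the filter only in the KO mice. *Top2a* and *Mki67* also reached it in WT2. The direction of the former genes, and the lack of lower mitotic genes, was therefore largely set by the filter. *Ube2c* had 0 and 0 UMIs in WT and 59 and 33 in KO, or 33.8 and 32.5 CPM in KO. It was at least 18.8-fold higher in KO against a floor of 3 UMIs over the WT group (adjusted p = 0.0013). *Top2a* was at 2.09 and 16.2 CPM in WT and at 52.1 and 81.7 in KO, with a log2 fold change of 2.89 (adjusted p = 0.016, with an SE of 0.47). *Birc5*, which encodes the chromosomal passenger protein survivin, was at 2.09 and 5.41 in WT and at 24.6 and 22.7 in KO, with a log2 fold change of 2.65 (adjusted p = 0.044, with an SE of 0.51). *Cenpf* had 2 and 0 UMIs in WT and 26 and 39 in KO, a ratio of KO to WT CPM of 19.9 (exact 95% interval 5.30 to 168, adjusted p = 0.047). *Hmgb2* was at 247 and 235 CPM in WT and at 528 and 519 in KO, with a log2 fold change of 1.06 (adjusted p = 0.0090, with an SE of 0.15). Thinned to 2000 UMIs per cell, *Hmgb2* had a log2 fold change of 0.45 (adjusted p = 0.89). For each of these 5 genes both KO mice were above both WT mice.

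Of the KO cells with at least 5 mitotic genes, 3 of KO1 held hardly any UMIs of microglia genes, and both of KO2 held monocyte or neutrophil markers. Cells with at least 5 mitotic genes numbered 0 and 2 in WT and 4 and 2 in KO, and without them none of the members was called by edgeR (3 members had an unadjusted p under 0.05). For the 4 mitotic genes this follows from how the cells were chosen. *Hmgb2*, which was not used to choose them, had a log2 fold change of 0.095 (adjusted p = 0.92), and without the cells with at least 2 monocyte or neutrophil UMIs it had one of 0.69 (adjusted p = 0.99). The WT2 cells with 7 and 29 mitotic UMIs had 38 and 262 UMIs of the 8 microglia markers. In KO1, 3 of the 4 cells had 1, 1 and 2 microglia marker UMIs out of 15614, 12372 and 18664 UMIs. These 3 cells had 651, 334 and 723 UMIs of *Prss34* and 496, 268 and 947 of *Mcpt8*, proteases known from basophils, which were looked up after the values were seen. *Prss34* had 0 UMIs in the cluster in the other 3 mice. The other KO1 cell, with 1354 UMIs, had 10 microglia marker UMIs and 9 mitotic UMIs. The KO2 cells had 22 and 13 microglia marker UMIs, 81 and 642 UMIs of the monocyte or neutrophil markers, and 271 and 257 UMIs of *Lyz2*. Summed monocyte or neutrophil markers in the cluster were at 229 and 219 CPM in WT and at 555 and 969 in KO. Among cells with at least 2 microglia markers alone, which were 205, 155, 252 and 260 in number, no member was called (3 members had an unadjusted p under 0.05), and *Hmgb2* had a log2 fold change of 0.68 (adjusted p = 0.62). That subset kept 2 cells of WT2, 1 of KO1 and 2 of KO2 with at least 5 mitotic genes. The 2 KO2 cells held 113 and 174 *Hmgb2* UMIs.

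Of the other members in the microglia-like cluster, *Mki67* (log2 fold change 3.22, adjusted p = 0.097), *Hmmr* (3.39, adjusted p = 0.12), *Cdk1* (2.14, adjusted p = 0.22) and *Ccnb2*, which encodes cyclin B2 (2.98, adjusted p = 0.25), were tested and not called. *Ccnd1* was at 133 and 126 CPM in WT and at 177 and 207 in KO, with a log2 fold change of 0.51 (adjusted p = 0.33). *Cdk6*, *Ccnd2* and *Stmn1*, which differed in ECs, had log2 fold changes of 0.00, -0.19 and -0.03 here. The 4 S phase genes tested lay between -0.14 and 0.18, and the 8 mitotic and 5 S phase genes that were not tested had between 1 and 31 UMIs each. Each of the 5 calls was lost when either WT mouse was left out, and DESeq2 called 2 of the 36 members.

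In mural cells *Ccnd1* was the only member called. It was at 157 and 155 CPM in the WT mice and at 590 and 315 in the KO mice, a log2 fold change of 1.43 (edgeR, adjusted p = 0.020, with an SE of 0.26), where 253 of 11382 genes (2.22%) were called, 192 of them higher in KO (1.69%). The 2 KO mice were higher than WT but far from each other. The median log2 fold change was 0.07 over the 16 members tested and -0.02 over all genes. *Cdkn1a* (log2 fold change 0.50, adjusted p = 0.18), *Cdkn1c* (-0.96, adjusted p = 0.069) and *Stmn1* (-0.79, adjusted p = 0.13) were not called, *Ccnd2* and *Cdk6* had log2 fold changes of -0.24 and 0.03, and the S phase genes tested lay between 0.06 and 0.63. None of the 16 mitotic genes was tested. Of the 267 mitotic UMIs in KO mural cells 157 were in 3 pericytes of KO1, of which 2 held markers of another type. These 3 pericytes had 456 to 616 UMIs of pericyte markers and 5 to 10 of endothelial markers. The call for *Ccnd1* in mural cells was lost in each of the 4 fits that left out 1 mouse (log2 fold changes of 0.94 to 1.82, adjusted p-values of 0.24 to 0.87). It was also lost after thinning each cell to 2000 UMIs (0.77, adjusted p = 0.20) and without the cells that held markers of another type (0.22, adjusted p = 0.91).

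The mix of mural cells differed between mice. Smooth muscle markers summed to 19187 and 18752 CPM in WT mural cells and to 5200 and 13324 in KO mural cells, and endothelial markers to 5111 and 5749 in WT and 7353 and 6249 in KO. Pericytes were therefore also tested alone, a choice made after the values were seen, with 469 of 9844 genes called (4.76%). *Ccnd1* in pericytes was at 62.8 and 53 CPM in WT and at 653 and 431 in KO, a log2 fold change of 3.20 (edgeR, adjusted p = 3.1e-05). *Ccnd2* was at 79.7 and 71.1 in WT and 361 and 186 in KO (1.84, adjusted p = 0.0023), and *Cdkn1a* at 136 and 177 in WT and 258 and 274 in KO (0.71, adjusted p = 0.038). *Stmn1* fell by 1.18 on the log2 scale (adjusted p = 0.0066) and *Cdkn1c* by 1.03 (adjusted p = 0.047). The 5 log2 fold changes had the same sign as in ECs, where 3 of these members were called.

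Most *Ccnd1* UMIs of KO pericytes lay in cells that also held markers of another type. Endothelial markers in pericytes summed to 7507 to 7757 CPM in the 4 mice, against 11622 to 12650 in ECs. *Ccnd1* was itself higher in KO ECs, and the part of endothelial RNA in the *Ccnd1* value of KO pericytes was not tested. Of the 3203 *Ccnd1* UMIs in KO pericytes, 3089 (96.4%) were in cells that held markers of another type, as were 75 of the 94 (79.8%) in WT pericytes. Such cells also held most UMIs of all genes in the pericytes of each mouse, so these shares alone do not show a higher level there. In these cells *Ccnd1* was at 721 and 507 CPM in KO and at 67.4 and 61.1 in WT. In the pericytes without such markers, where endothelial markers summed to 284 to 443, it was at 50.5 and 33.8 in WT and at 171 and 107 in KO. That difference had a log2 fold change of 1.76 and was not called (edgeR, adjusted p = 0.074). Of the other calls in pericytes, *Ccnd2* (1.05, adjusted p = 0.17) and *Cdkn1c* (-0.84, adjusted p = 0.71) were also not called without such cells. *Stmn1* and *Cdkn1a* were not tested in that fit. Among all members tested in it by edgeR, 5 had an unadjusted p under 0.05, and *Cdkn1c*, at 0.11, was not among them. In smooth muscle cells *Ccnd1* was at 183 and 208 in WT and at 341 and 188 in KO, so the groups overlapped.

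**Figure D4:**
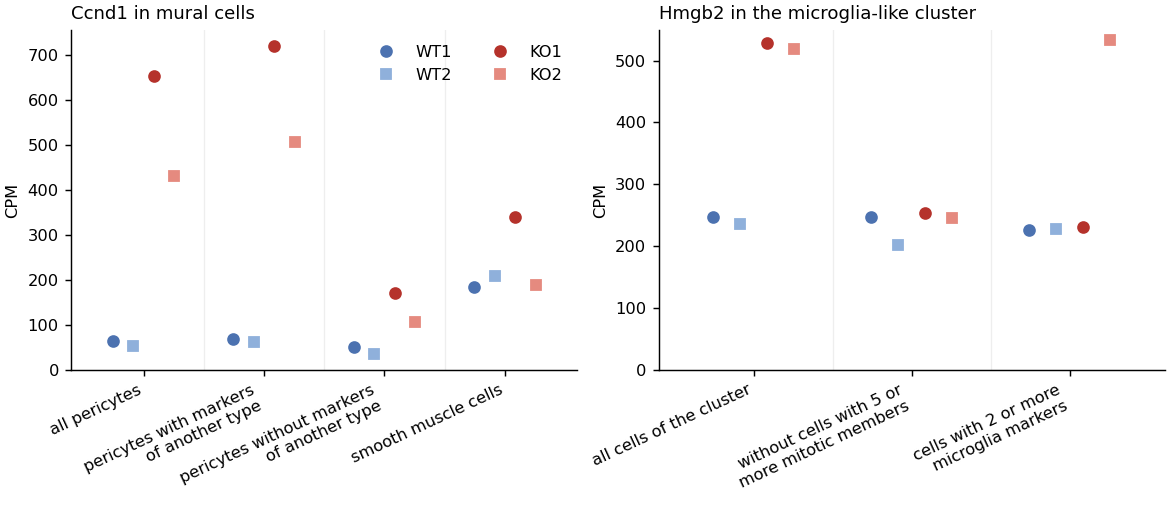
CPM per mouse of *Ccnd1* in all pericytes, in those with and without markers of another type and in smooth muscle cells, and of *Hmgb2* in all microglia-like cells, without the cells with at least 5 mitotic genes, and in cells with at least 2 microglia markers. *Ccnd1* in KO falls from 721 and 507 in pericytes with such markers to 171 and 107 in those without.

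In lymphocytes none of the 13 members tested was called, where edgeR called 3 of 5450 genes (0.055%). There were 3 members with an unadjusted p under 0.05. *Cdkn1a* was at 42.9 and 82.9 CPM in WT and at 12.6 and 12.8 in KO (13, 40, 7 and 2 UMIs), with a log2 fold change of -2.39 (adjusted p = 0.12). *Cdkn1c* was at 72.6 and 47.7 in WT and at 12.6 and 19.2 in KO (-2.07, adjusted p = 0.20), and *Stmn1* had a log2 fold change of -1.20 (adjusted p = 0.48). For both inhibitors the groups did not overlap, in counts of at most 40 UMIs per mouse. Groups were apart for 11 of the 36 members (30.6%) in lymphocytes. A random order of 2 against 2 mice gives a probability of 0.33 only where no values are tied. Several members, such as *Ccna2* and *Rrm2*, had 0 UMIs in every mouse and could not be apart. The 30.6% is therefore not comparable with 0.33. The share over all genes was not counted, so the lack of overlap is a description only. Endothelial markers in the lymphocytes also differed, with a sum of 3466 and 2973 CPM in WT and of 2131 and 2251 in KO, and their part in these values was not tested. The median log2 fold change was -0.11 over the members tested and 0.01 over all genes. None of the 16 mitotic genes was tested, and they had 15 UMIs together in WT and 25 in KO lymphocytes, with no cell holding at least 5 of them.

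The difference in the KO effect between cell types was tested for all genes in 1 edgeR fit of ECs with another type. For *Ccnd1* the log2 fold change was smaller than in ECs by 2.09 in microglia-like cells, where 339 of 13896 genes (2.44%) differed from ECs in their KO effect. It was smaller by 1.24 in mural cells as a whole, where 175 of 13873 genes (1.26%) differed, and by 2.06 in lymphocytes, where 132 of 12634 genes (1.04%) differed. *Cdk6*, lower in KO ECs, differed from ECs by 0.95 in microglia-like cells (adjusted p = 0.0061) and by 0.93 in mural cells (adjusted p = 0.015). *Ccnd2* differed by -1.16 in microglia-like cells (adjusted p = 0.014) and by -1.24 in mural cells as a whole (adjusted p = 0.00080). In pericytes alone the log2 fold changes of *Ccnd1* and *Ccnd2* were 3.20 and 1.84, above the 2.61 and 0.98 of ECs, so the direction of these 2 mural differences turned in that subset, whose difference from ECs was not tested.

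The share of cells with at least 3 of the 36 genes depended on depth. As deposited it was 81.2% and 78.3% in WT ECs and 88.1% and 73.4% in KO ECs, with the highest share in the deepest library. After each cell was thinned to 2000 UMIs, which left 3039, 4122, 1975 and 3541 ECs, the share was 42.8% and 50.0% in WT and 50.7% and 50.0% in KO. WT2 was close to both KO mice and WT1 was below them, with 95% exact binomial intervals of 41.0 to 44.6 for WT1, 48.5 to 51.5 for WT2, 48.5 to 52.9 for KO1 and 48.3 to 51.6 for KO2, which cover counting error only (exact permutation test over mice, two-sided, p = 0.67, where 2 against 2 mice cannot go below 0.33). In microglia-like cells the thinned shares were 31.8% and 29.5% in WT and 34.0% and 37.4% in KO (exact p = 0.33). In mural cells they were 42.3%, 45.5%, 46.1% and 45.5% (exact p = 0.67), and in lymphocytes 29.2%, 39.6%, 30.8% and 33.3% (exact p = 1), in the order WT1, WT2, KO1, KO2.

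Cells with at least 3 of the 25 proliferation genes were much rarer once depth was equal. Thinned to 2000 UMIs, 1 and 2 WT ECs (0.033% and 0.049%) and 5 and 5 KO ECs (0.25% and 0.14%) passed, so both KO mice were higher (exact p = 0.33). As deposited the shares were 6.0% and 5.79% in WT ECs and 11.3% and 3.26% in KO ECs, and the genotypes overlapped. In microglia-like cells the thinned shares were 0.64% and 2.27% in WT and 1.68% and 1.40% in KO (exact p = 1). In mural cells 3 of 217 KO1 cells (1.38%) passed and none did in the other 3 mice, where 0 of 279, 0 of 303 and 0 of 336 cells allow a share of up to 1.08%, 0.99% and 0.89% if the limit is set at 3 cells of the total, and of up to 1.31%, 1.21% and 1.09% by the exact interval drawn in the plot of shares (exact p = 1). The share in KO1 mural cells as deposited was 26.5%, against 4.76% to 6.21% in the other mice, and these cells had a median of 12165 UMIs against 5698 to 6738. In lymphocytes 1 of 33 KO2 cells passed and none did in the other mice (exact p = 1). Summed over a type, the 25 genes were at 131 and 129 CPM in WT ECs and at 156 and 153 in KO ECs (exact p = 0.33). They were at 207 and 263 in WT and at 451 and 585 in KO microglia-like cells (exact p = 0.33).

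**Figure D5:**
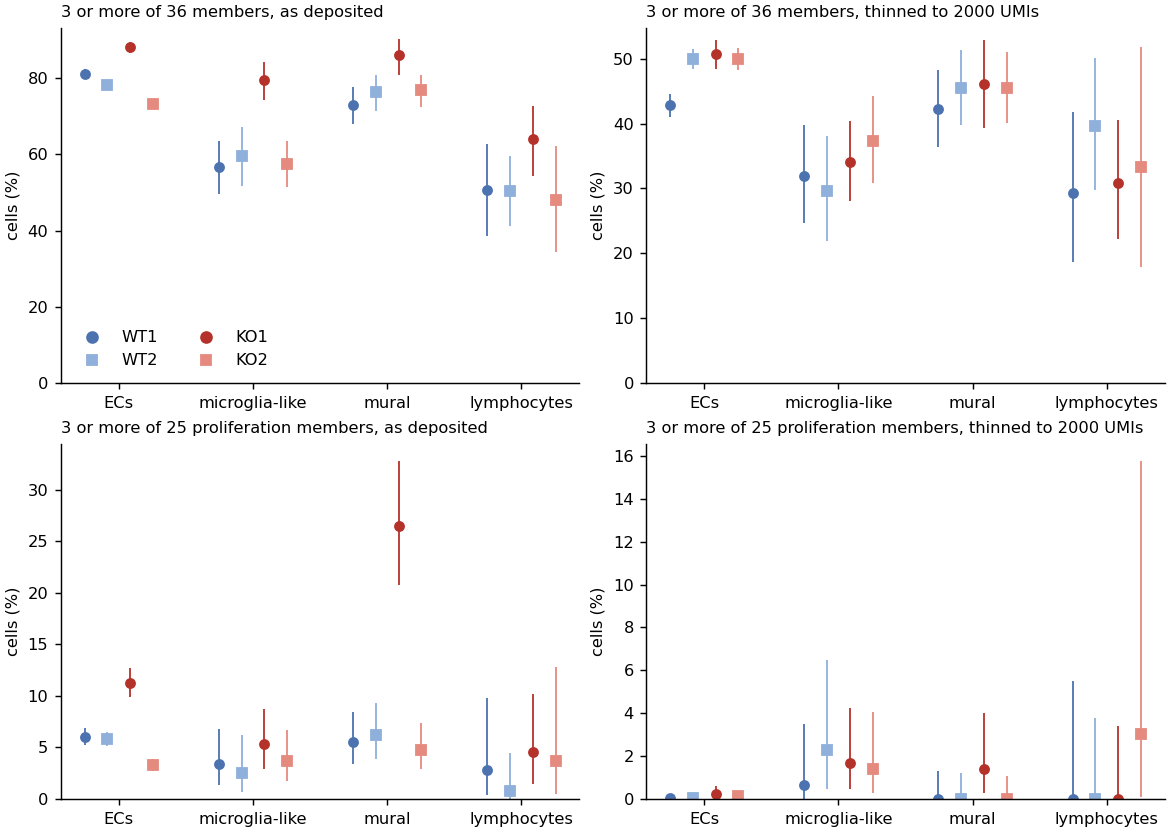
Share of cells, in percent, with at least 3 of the 36 genes and with at least 3 of the 25 proliferation genes, for each mouse and cell type, as deposited and thinned to 2000 UMIs, with 95% exact binomial intervals as bars. Thinning brings ECs of WT2, KO1 and KO2 to 50.0%, 50.7% and 50.0%, from 78.3%, 88.1% and 73.4% as deposited.

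Other cell cycle genes were counted in the same fits. In ECs, 2 of 36 tested further S phase genes and 2 of 44 tested further G2 and M phase genes were called, all higher in KO, against 5.95% of all genes tested in either direction, and the medians of these lists were -0.16 and 0.09 on the log2 scale. *Brip1*, a helicase of DNA repair, had a log2 fold change of 2.41 and *Uhrf1*, which maintains DNA methylation at replication, of 1.45. *Anln* (anillin, of cytokinesis) had 2.03 and *Ckap2*, a spindle protein gene, 1.85. Of 23 tested genes of the RB and E2F pathway, 4 were higher and 1 lower in KO ECs. The lower gene was *Cdkn2c*, at 15.7 and 22.8 CPM in WT and at 9.31 and 9.90 in KO. Its log2 fold change was -1.02 (edgeR, SE 0.18, adjusted p = 0.015). *Cdkn2a*, the locus of the CDK4 and CDK6 inhibitor p16, was at 0.076 and 0.41 CPM in WT and at 2.84 and 1.36 in KO (log2 fold change 2.99, SE 0.63, adjusted p = 0.032). Of 13 p53 target genes 2 were higher, among them *Phlda3*, an inhibitor of AKT, at 7.37 and 8.50 in WT and 21.2 and 18.1 in KO (1.29, SE 0.14, adjusted p = 0.0029). In the microglia-like cluster only *H2afx*, a histone variant gene, was called among these lists (1.56, adjusted p = 0.020), and in mural cells only *Cdkn2b*, which encodes the inhibitor p15 (1.32, adjusted p = 0.046). In lymphocytes none was called (3 of these listed genes outside the 36 had an unadjusted p under 0.05).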

How the data were processed

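Per the labels, the submitters' processing notes and the study's methods, the authors aligned 10x 3′ v3.1 reads to mm10 with Cell Ranger 6.1.2 and deposited filtered tables of raw UMI counts per gene and cell for 4 libraries, 1 per mouse (6.1.1 in the file headers). Cells above 500 genes with less than 10% mitochondrial UMIs were kept. Clustering (Seurat 5.3.0, 2000 variable genes less the listed cell cycle genes, 50 components, resolution 0.2, and 0.6 within ECs) gave clusters that were named by marker lists. No doublet caller was run, and cells with at least 2 markers of another type were left out in an alternative. Fenestrated endothelial-like cells, erythrocytes and an unnamed cluster led by *Ttr* were not tested.

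UMIs were summed per mouse and type and tested with edgeR 4.0.16 (TMM, filterByExpr, quasi-likelihood, no covariates, threshold 0.05 after Benjamini-Hochberg adjustment over all genes), with DESeq2 1.42.0 as an alternative. The fits were tested on simulated data. Cells were thinned to 2000 UMIs for shares, compared by exact permutation over mice. All 36 members are accounted for. Called members get each mouse's value, and at most 6 other listed genes per comparison are named by size of change. *Cdkn2c* in ECs, next in size, is named as well because it was lower in KO. The members and lists, including the marker genes of angiogenic capillary-like and tip-like ECs, were chosen with earlier results of these data known.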

Additional observations from a re-analysis of the deposited data

Results flagged for a closer look

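In 1 edgeR fit of ECs with another cell type, 11 KO effects (log2 fold change, *Angpt2*-KO over WT) differed between the types at an adjusted p under 0.05. Microglia-like minus EC differences were 10.39 for *Ube2c*, which had 0 UMIs in both WT mice so that its size is set by the model (adjusted p = 0.0496), 1.18 for *Hmgb2* (adjusted p = 9.3e-09), 0.95 for *Cdk6* (adjusted p = 0.0061), 0.78 for *Stmn1* (adjusted p = 0.018), -1.16 for *Ccnd2* (adjusted p = 0.014) and -2.09 for *Ccnd1* (adjusted p = 2.1e-18). In the microglia-like cluster alone, *Hmgb2* had a log2 fold change of 0.095 (adjusted p = 0.92) without the cells with at least 5 mitotic genes. After thinning to 2000 UMIs it had one of 0.45 (adjusted p = 0.89). Mural minus EC differences were 0.93 for *Cdk6* (adjusted p = 0.015), -1.24 for *Ccnd2* (adjusted p = 0.00080) and -1.24 for *Ccnd1* (adjusted p = 0.0035). In pericytes alone the log2 fold changes of *Ccnd1* (3.20) and *Ccnd2* (1.84) were above those in ECs (2.61 and 0.98), so these 2 differences turned in direction there, untested. Lymphocyte minus EC differences were -2.06 for *Ccnd1* (adjusted p = 0.00087) and -2.93 for *Cdkn1a* (adjusted p = 5.8e-07). These fits were added after the data were seen. The types come from the same mice, and the libraries of each type differ in the RNA of other types they hold, as given in the report.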

How the results depend on the processing

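With 2 mice per genotype and few mitotic UMIs, depth and mouse number limit the members that could be called. Called numbers below are KO against WT, all genes first and members second. In ECs (802 and 8), no filter on low counts gave 1565 and 13, leaving out angiogenic capillary-like and tip-like cells 187 and 2, leaving out cells with at least 5 mitotic genes 5 members, and leaving out 1 mouse 277 (without WT1) to 1461 (without KO2) and 3 to 15. *Ccnd1* was called throughout in ECs. In microglia-like cells (37 and 5), DESeq2 gave 19 and 2, no filter 202 and 11, removal of cells with markers of another type 14 and 3, removal of cells with at least 5 mitotic genes 15 and 0, cells with at least 2 microglia markers 10 and 0, and leaving out 1 mouse 1 (without WT2) to 163 (without KO2) and 0 to 5. Thinning gave 0 and 0 there (304 genes and 1 member at an unadjusted p under 0.05), and removal of cells with monocyte or neutrophil UMIs 0 and 0 (298 and 2). In mural cells (253 and 1), no filter gave 590 and 3, thinning 26 and 0, removal of cells with markers of another type 1 and 0, pericytes alone 469 and 5, pericytes without other markers 10 and 0, DESeq2 2 members, removal of cells with at least 5 mitotic genes 2 members, and leaving out 1 mouse 0 to 1 and 0 (526 to 1852 genes and 3 to 10 members at an unadjusted p under 0.05). In lymphocytes (3 and 0), no filter gave 37 and 2, thinning 1, removal of cells with markers of another type 1, B cells alone 0 (218 at an unadjusted p under 0.05), removal of cells of the progenitor list 17 and 2, and leaving out 1 mouse 13 (without KO1) to 40 (without KO2) and 0 to 2. The 2 members were *Cdkn1a* and *Cdkn1c*. Differences in shares of cells, KO minus WT in percentage points, reversed in some settings. For at least 3 members it was -0.32 in microglia-like cells at 4 or more genes (5.01 as reported). In lymphocytes (-2.32) it was 5.50 as deposited, 1.33 thinned to 1000 UMIs, 1.84 at 4 or more genes, 1.91 without cells with markers of another type and -7.50 to 2.86 with 1 mouse left out. For proliferation genes in lymphocytes (1.52) it was -0.41 thinned to 1000 UMIs, -1.35 at 2 or more genes and 0 to 3.03 with 1 mouse left out. Left-out mice gave -0.73 to 0.90 in microglia-like cells (0.086), 0 to 1.38 in mural cells (0.69), and -16.0 to 90.0 CPM for the summed level in lymphocytes (37.0). The causes were not tested. Equal replicate numbers do not pair these mice by the labels, which also do not assign the mice to the study's 2 independent experiments. Deviations of same-numbered mice correlated at a Pearson r of 0.099 and a Spearman rho of -0.14 over 13471 genes, which are not independent. With the replicate number as a block, 73 genes were called in microglia-like cells and 25 genes and 2 members in lymphocytes, the other counts were within 1.5 times, and *Cdkn1c* in ECs was called (-0.76, adjusted p = 0.0080). Settings on single cell types and subsets named in the report as chosen after the values were seen were not planned, nor were the removals of mitotic, monocyte-marked or progenitor cells.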

Other observations

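Among the fenestrated endothelial-like cells, which were left out of the comparisons, 1 of 811 cells held at least 5 of the 16 mitotic genes. It came from WT2, had 12761 UMIs, 13 of the mitotic genes, 51 mitotic UMIs and 46 UMIs of endothelial markers. No cell of the lymphocyte clusters reached this number in any mouse.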
